A study of Mus musculus with 45 samples.

Results

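The effect of a high-fat diet that 2 separately fed sets of mice had in common was examined in small intestinal tuft cells. The comparison took every library with a group label, 45 of 45, and set 23 libraries from mice on the high-fat diet (HFD, 60% of energy from fat) against 22 from mice on the low-fat reference diet (RFD, 10% of energy from fat). The set called STF held 11 RFD and 11 HFD libraries and the set called LTF held 11 RFD and 12 HFD libraries, and the set was kept as a block, so that each HFD library was compared with RFD libraries of its own set. All mice were male C57BL/6J animals kept at thermoneutrality, with no transgene, and each library came from 1 mouse. The cells were sorted from small intestine as EpCAM+ Siglec-F+ cells and sequenced in bulk. The methods name the sorted cells CD45+ but also say that cells carrying CD45 were left out. The labels give 9 weeks of feeding for all 45 libraries, whereas the methods describe a short and a long feeding time, so feeding time and set of libraries cannot be told apart and only the set names are used. Mice were killed on several days that the labels do not name.

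Tuft cells are rare chemosensory cells of the gut epithelium. They carry a taste-like signalling cascade that ends at the channel TRPM5, make eicosanoids and acetylcholine, and release IL-25, which drives type 2 immunity against worms and protists. Cells that take up dietary fat activate it to acyl-CoA, burn it in mitochondria and peroxisomes, store it in lipid droplets or pack it into chylomicrons. Many genes of these steps answer to fatty acids through the nuclear receptor PPAR alpha, which binds a repeated AGGTCA-like element, whereas genes of MHC class I presentation answer to interferons through IRF factors, which bind repeats of GAAA.

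The RFD libraries held between 189340 and 4193097 counts, with a median of 1562531, and the HFD libraries between 409023 and 4690213, with a median of 1813398, and 2 libraries of STF, 1 on each diet, were below 500000. Levels are given as CPM, counts scaled to the TMM-adjusted total of the library, and for each group the lowest, the median and the highest library are stated. One LTF library on RFD, mouse 3, stood apart with reads on 8609 genes at 927740 counts. Mitochondrial DNA genes took 41.7% of the counts of STF RFD mouse 40 and 37.1% of those of STF HFD mouse 50, the libraries below 500000, against a median of 7.54% over all. The non-coding gene AY036118 (named after its values were seen) was called lower on HFD (log2 fold change -0.77), with a median share of counts of 11.8% on RFD and 4.65% on HFD in STF and of 8.93% and 5.54% in LTF, and the part of these shares in the results was not tested. The tuft label was checked against 20 tuft markers, all of which passed the filter on low counts. Their summed level ran from 4626 to 30851 CPM in STF on RFD, with a median of 19912, and from 436 to 29635 on HFD, with a median of 8362. In LTF it ran from 4686 to 29103 CPM on RFD, with a median of 21563, and from 1312 to 29464 on HFD, with a median of 16590. The groups overlapped, and 5 of the 20 tuft markers were lower and none was higher on HFD by the test given below. This count depended on the tool, with 9 of the 20 called by DESeq2, 19 by voom and 1 by limma on TPM. Within STF or LTF alone edgeR called none. The 7 Paneth cell markers summed to medians of 2733 CPM on RFD and 28205 on HFD in STF and of 1488 and 11404 in LTF, with 600676 CPM in the STF HFD library of mouse 80, where the tuft markers were at their lowest. None of the 7 Paneth markers was called by edgeR, voom or limma on TPM, 4 were by DESeq2, 3 had an unadjusted p under 0.05, and their median log2 fold change was 1.81. In 17 libraries (3 and 8 in STF and 2 and 4 in LTF, on RFD and HFD) the Paneth sum was above the tuft sum. Of the other epithelial types, enterocyte markers had 1 higher and 4 lower of 12, goblet markers 0 and 0 of 7 (1 at an unadjusted p under 0.05, 1 by DESeq2 and 3 by voom), enteroendocrine markers 0 and 3 of 11 and stem cell markers 1 and 0 of 6. T cell marker sums stayed at or below 105 CPM, with Cd3d, Cd3g, Cd8b1 and Trdc under the filter, while 6 of 7 eosinophil markers and 3 of 6 B cell markers, Ms4a1 among them, were also under it. Sums of macrophage markers reached 2441 CPM, those of B cell markers 3367, of M cell markers 153 and of stromal markers 347 in single libraries. Because these marker sums differed with the diet, the counts of the lists are also given with a covariate of the mean of 20 tuft markers less that of 67 other markers in the model and without the 17 Paneth-rich libraries. Tuft, enteroendocrine, enterocyte, Paneth, goblet and stem cell genes help to form this covariate, so that it bears on their own lists. In bulk samples, fewer cells of a type and less RNA per cell cannot be told apart.

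**Figure D1:**
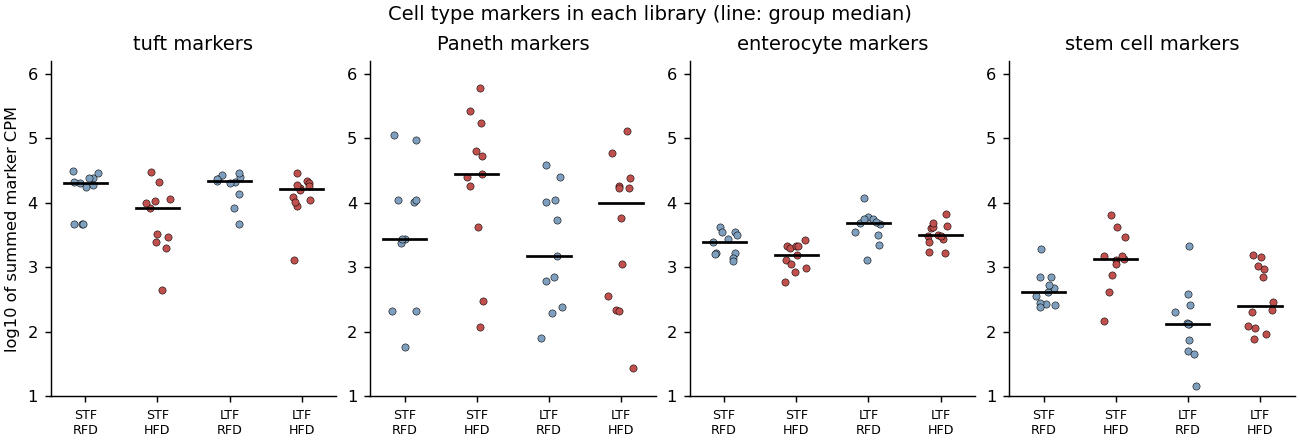
Summed CPM of the tuft, Paneth, enterocyte and stem cell markers in each of the 45 libraries on a log10 axis, by set and diet, with a line at the group median. Tuft sums on HFD reach down to 436 CPM in STF, and Paneth sums span from 27.3 to 600676 CPM over all libraries.

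The common diet effect was tested by edgeR (quasi-likelihood fit) over 14020 genes with p-values adjusted after Benjamini and Hochberg, and a gene was called at an adjusted p under 0.1. Of these genes, 1642 were called (11.7%), 846 higher on HFD (6.03%) and 796 lower (5.68%). At an adjusted p under 0.05 there were 489 higher and 439 lower genes. The median of the mean CPM was 58.16 for called higher and 35.47 for called lower genes, against 13.55 for all genes tested. Shares of called genes in the lists below were not matched for level. The median log2 fold change was 0.74 over the genes that rose and -0.82 over those that fell, against -0.06 over all genes tested, and 453 of the 1642 changed more than 2-fold. Within STF alone 684 genes (4.88%) and within LTF alone 63 genes (0.449%) were called, in a single model of the 4 groups that shares all libraries with the pooled fit. With the marker covariate these counts were 69 and 214, by DESeq2 1604 and 165, and without STF HFD mouse 8 they were 342 and 64. Of the 1642 genes, 39 were also called in both sets, 535 in STF only, 19 in LTF only and 1049 (563 higher and 486 lower) in neither. The median standard error of the called genes was 0.24 in the pooled fit, 0.34 within STF and 0.33 within LTF. All 1642 had the same sign in both sets, which the choice of genes by their pooled effect favours, and 1118 had 1 sign in all 6 blocks formed by set and series of mouse numbers. No gene had an adjusted p under 0.1 for a difference of the diet effect between the sets by edgeR or by DESeq2 (451 at an unadjusted p under 0.05), whereas 65 did with no filter on low counts. With the marker covariate 1019 genes were called, among them 500 of the 846 and 441 of the 796, and all 1642 kept their sign. Of the calls 51.5% were higher, and 62.8% of 941 calls were when limma was run on log2(TPM + 1). In the 28 libraries left without the Paneth-rich ones 224 genes were called, 218 of them among the 1642, and 1640 kept their sign. Of the 158 called genes named in the text, 87 did not pass in those 28 libraries and none of the 158 changed sign. Leaving out LTF RFD mouse 1 gave 2809 called genes (1730 higher) and leaving out STF HFD mouse 64 gave 2520 (1287 lower). The lower genes numbered 528 without STF HFD mouse 50, 489 without STF HFD mouse 80 and 1206 without LTF RFD mouse 3, while 1005 of the 1642 genes were called whichever single library was left out.

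Among the genes that rose, those with the smallest p included Cyp4a10, Acot1, Me1, Acadvl, Acaa2, Rbp2, Ces1f, Hsd17b4, Hadhb, Ddc and Ppa1. Cyp4a10 (chromosome 4, 115518264 to 115533649, GRCm38) encodes a hydroxylase of the last carbon of fatty acids. Its near copies Cyp4a31 and Cyp4a32 were not among the genes tested, and the division of reads between them is uncertain. Cyp4a10 had 0, 0 and 3.79 CPM in STF on RFD and 0, 25.4 and 73.3 CPM on HFD. The LTF libraries had 0, 0 and 2.30 CPM on RFD and 0, 45.6 and 83.3 CPM on HFD. In 21 of 23 HFD libraries it was above every RFD library of the same set, and in 1 HFD library of each set no read was found. These were STF mouse 64 and LTF mouse 50, with the highest tuft marker sums on HFD of their sets, 29635 and 29464 CPM. Their enterocyte marker sums, 579 and 1649 CPM, were the lowest on HFD of their sets. In STF mouse 64 and LTF mouse 50, Acot1 was at 0 and 3.25 CPM, Hsd17b4 at 50.2 and 52.8 and Me1 at 0 and 11.9. Plin2 was at 58.5 and 78.1 CPM there, and Acadvl at 268 and 155. The RFD medians of STF and LTF were 67.5 and 60.8 CPM for Hsd17b4, 62.5 and 47.5 for Plin2 and 158 and 137 for Acadvl. The part of other cells in the levels of these genes was not tested. The fold change was 5.90 on the log2 scale (SE 0.55, adjusted p = 2.52e-10, edgeR), with only 22 reads in all 22 RFD libraries behind the lower level. Over all genes tested, 2 (0.0143%) had at least 20 HFD libraries above every RFD library of their set, and the other one was Ces1f. At least 15 such libraries were found for 26 genes (0.185%) and at least 10 for 184 (1.31%), while 52 (0.371%) had at least 10 HFD libraries below every RFD library.

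**Figure D2:**
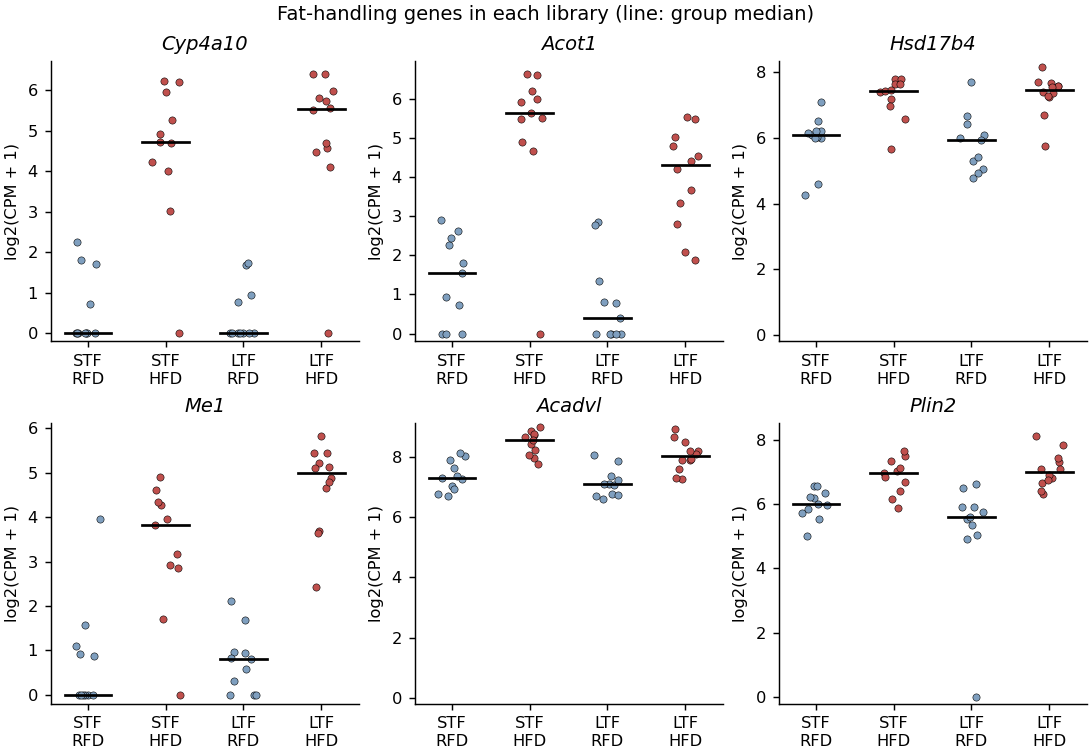
Level of 6 fat-handling genes in each library as log2(CPM + 1), by set and diet, with a line at the group median. Cyp4a10 and Acot1 sit near 0 on RFD, with medians of 25.4 and 48.6 CPM on HFD in STF, whereas Acadvl moves from a median of 158 to 378 CPM there.

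Of the 18 tested genes of mitochondrial fatty acid oxidation, 11 rose and none fell, with a median log2 fold change of 0.63. Acadvl, which starts the oxidation of long acyl chains, had 105, 158 and 279 CPM on RFD and 220, 378 and 518 CPM on HFD in STF. The level in LTF was 96.0, 137 and 268 CPM on RFD and 155, 261 and 497 CPM on HFD. All 23 HFD libraries were above the RFD median of their set and 14 were above every RFD library of it, giving 0.98 for the log2 fold change (SE 0.14, adjusted p = 1.74e-05, edgeR). The 2 chains of the trifunctional protein that carries out the later steps, Hadha and Hadhb, rose by 0.68 and 1.00 on the log2 scale, and the thiolase Acaa2 by 1.55. Etfdh, which passes the electrons to ubiquinone, rose by 0.97 on the log2 scale. Members with high levels that did not pass were Slc25a20, the carnitine carrier, at -0.14 (adjusted p = 0.68) and Hadh at 0.54 (0.11). With the marker covariate 11 members were called and without the Paneth-rich libraries 7 were.

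In peroxisomes 8 of 22 tested genes rose and none fell (median log2 fold change 0.35), and 7 were called with the marker covariate. Hsd17b4, the bifunctional enzyme of peroxisomal oxidation, rose from a median of 67.5 to 171 CPM in STF and from 60.8 to 177 CPM in LTF (log2 fold change 1.28, SE 0.20). Abcd3, which imports acyl-CoA, rose by 0.89 on the log2 scale, Ech1 by 0.39 and the thiolase Acaa1b by 1.56. Slc27a2, an acyl-CoA synthetase that also acts in uptake, rose by 1.00 on the log2 scale. Acaa1b has a near copy in the genome, so its reads could be split. Of the 22, 2 were called without the Paneth-rich libraries.

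Of 8 genes of ketone body synthesis and use 3 rose and none fell, with 2 called under the marker covariate and 1 without the Paneth-rich libraries. Among those that rose were Acat1 (log2 fold change 0.79, SE 0.19) and the monocarboxylate carrier Slc16a1 (0.99, SE 0.33), whereas Bdh1 was at 0.46 (adjusted p = 0.11).

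Thioesterases, which release fatty acids from CoA, moved in both directions. Acot1 had 0, 1.94 and 6.45 CPM on RFD and 0, 48.6 and 97.9 CPM on HFD in STF, and 0, 0.309 and 6.25 CPM against 2.67, 18.8 and 44.9 CPM in LTF. Its fold change was 3.99 on the log2 scale (SE 0.47, adjusted p = 2.19e-07, edgeR), and 19 of 23 HFD libraries were above every RFD library of their set. Acot2, Acot4 and Acot12 rose by 1.05, 1.76 and 1.12 on the log2 scale, Acot7 fell by 0.76, and 6 of 11 did not pass. The marker covariate left 3 higher and 1 lower, and the libraries without the Paneth-rich ones 1 and 1. Acot1 and Acot2 are near copies, so the division of reads between them is uncertain. Of 8 tested Cyp4 genes, Cyp4f16 (0.91) and Cyp4f40 (0.98) rose beside Cyp4a10, while Cyp4f13 and Cyp4f14, which act on leukotrienes and other eicosanoids, fell by 0.53 and 0.48 on the log2 scale. Of these genes 3 were higher and 1 lower with the marker covariate, and 2 and 0 without the Paneth-rich libraries.

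Of 21 genes of fatty acid uptake and activation 5 rose and none fell, and 2 were called with the marker covariate, Cd36 and Slc27a2 (named after their values were seen). In the libraries without the Paneth-rich ones 1 was. Cd36, the fatty acid receptor of the cell surface, rose from a median of 7.12 to 19.2 CPM in STF and from 12.7 to 45.5 CPM in LTF (log2 fold change 1.82, SE 0.36, adjusted p = 0.00146, edgeR). Fabp2, an intestinal fatty acid binding protein, rose by 1.19 on the log2 scale, Acsl5, which activates long chains, by 0.67 and Acss1, the acetyl-CoA synthetase of mitochondria, by 0.99. The liver-type binding protein Fabp1 was at -0.12 (adjusted p = 0.69).

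Of 21 genes of lipid droplets and of the fasting type 6 rose and 1 fell, with the same counts under the marker covariate and 2 and 0 without the Paneth-rich libraries. Plin2, which coats lipid droplets, had 30.9, 62.5 and 93.1 CPM on RFD and 58.5, 123 and 198 CPM on HFD in STF. The LTF libraries had 0, 47.5 and 97.5 CPM on RFD and 78.1, 128 and 276 CPM on HFD. The fold change was 1.21 on the log2 scale (SE 0.22, adjusted p = 0.000353, edgeR) and 18 of 23 HFD libraries were above every RFD library of their set. Pdk4, which turns off pyruvate dehydrogenase, rose by 2.73 on the log2 scale, Angptl4, an inhibitor of lipoprotein lipase, by 2.02 and G0s2, an inhibitor of the lipase ATGL, by 2.40. Abhd5, the activator of ATGL, fell by 0.79 on the log2 scale. The inhibitor and the activator of the same lipase moved in opposite directions.

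Me1 (chromosome 9, 86581371 to 86695953), the cytosolic malic enzyme that makes NADPH, had 0, 0 and 14.7 CPM on RFD and 0, 13.1 and 28.9 CPM on HFD in STF. The level in LTF was 0, 0.733 and 3.34 CPM on RFD and 4.34, 30.8 and 55.7 CPM on HFD. All 12 LTF libraries on HFD were above every RFD library of that set, against 4 of 11 in STF, and the fold change was 3.66 on the log2 scale (SE 0.52, adjusted p = 8.94e-06, edgeR). Of the 20 genes listed with it for fatty acid synthesis, Elovl7 (0.92) and the desaturase Scd1 (3.001, SE 0.82) rose and Elovl1 (-0.35) fell. Acly, which makes cytosolic acetyl-CoA, was at 0.05 (adjusted p = 0.88). This list had 4 higher and none lower with the marker covariate, and without the Paneth-rich libraries 3 and none. Cholesterol genes were split, with 3 higher and 3 lower of 31, 1 and 2 with the marker covariate, 1 and 0 without the Paneth-rich libraries and none on TPM. Idi1 and Insig1 rose by 0.43 and 0.60 on the log2 scale, and Npc1l1, the cholesterol importer, and Abcg5, a gene of cholesterol export, fell by 0.57 and 0.52. Abcg8, listed with Abcg5, was at 0.06 (adjusted p = 0.90, edgeR). Abcg5 also lost its call by voom, with no filter on low counts and without low totals.

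Genes of chylomicron assembly, typical of enterocytes, had 6 higher and 1 lower of 18, 5 and 1 with the marker covariate and 2 and 1 without the Paneth-rich libraries. Cd36 and Fabp2, already counted for fatty acid uptake, were among the 6. Mttp, which loads lipid onto apolipoprotein B, rose by 0.98 on the log2 scale, P4hb, its partner subunit, by 0.81 and Apoc2, the activator of lipoprotein lipase, by 1.09. Apoc3, an inhibitor of the same lipase, fell from medians of 94.1 to 38.8 CPM in STF and of 364 to 125 CPM in LTF. Its fold change was -1.31 on the log2 scale (SE 0.23, adjusted p = 0.000206, edgeR), with 23 of 23 HFD libraries below the RFD median of their set. Apoa1 and Apoa4, the apolipoproteins with high levels, had log2 fold changes of -0.52 (adjusted p = 0.10) and 0.57 (0.14).

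Retinoid genes had 6 higher and none lower of 17, with 3 called under the marker covariate and 3 without the Paneth-rich libraries. Rbp2, which binds retinol in the gut, had 117, 205 and 485 CPM on RFD and 143, 509 and 1604 CPM on HFD in STF. In LTF it had 182, 612 and 1368 CPM on RFD and 722, 1480 and 3309 CPM on HFD (log2 fold change 1.43, SE 0.22, adjusted p = 2.44e-05, edgeR). Dhrs4, Aldh1a1, Rdh7 and Isx, of which Aldh1a1 makes retinoic acid and Isx is a transcription factor that retinoic acid induces, rose by 1.29, 1.69, 1.00 and 0.90 on the log2 scale. Carboxylesterases and the related lipase Aadac had 5 higher and none lower of 11, and all 11 fold changes were above 0 (median 1.38), with 4 called under the marker covariate and 2 without the Paneth-rich libraries. Ces1f rose from a median of 15.6 to 71.8 CPM in STF and from 17.5 to 112 CPM in LTF, with 20 of 23 HFD libraries above every RFD library of their set (log2 fold change 2.36, SE 0.36). Aadac rose by 1.75 on the log2 scale and Ces2c by 1.05. Among 46 genes of xenobiotic metabolism 11 rose and 5 fell, with Mgst1 (1.59), Mgst2 (0.78), Ugt1a1 (1.06) and Ugt2b5 (2.29) higher and Papss2 (-1.18), which makes the sulphate donor, lower. Of the 46, 9 were higher and 4 lower with the marker covariate, and without the Paneth-rich libraries 3 and 2. The Ces1, Ugt1a and Ugt2b genes share exons or close copies, so their division is uncertain.

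Of 25 citrate cycle genes 15 rose and none fell (median log2 fold change 0.38), and 12 of the 15 were called in neither set alone. Idh1, the cytosolic isocitrate dehydrogenase, rose from a median of 143 to 224 CPM in STF and from 150 to 296 CPM in LTF (log2 fold change 0.96, SE 0.17, adjusted p = 0.000307, edgeR). Sucla2, Aco1, Dld and Idh2 rose by 0.59, 0.68, 0.69 and 0.82 on the log2 scale. Mdh1 was at 0.14 (adjusted p = 0.47), Sdha at 0.32 (0.16) and Ogdh at -0.22 (0.25). The citrate cycle count was 9 with the marker covariate and 2 without the Paneth-rich libraries. Branched-chain amino acid and propionate breakdown had 5 higher and none lower of 23, led by Pccb, a chain of propionyl-CoA carboxylase (1.19, SE 0.20), with 23 of 23 HFD libraries above the RFD median of their set. The nuclear genes of the respiratory chain had 11 higher and 3 lower of 70, all but 3 called in neither set alone, and 5 were higher with the marker covariate. Of the 13 mitochondrial DNA genes none was called by edgeR or DESeq2 and 1 was lower by voom, with none at an unadjusted p under 0.05 by edgeR, a median log2 fold change of -0.04 and a value of -0.27 for mt-Co1 (adjusted p = 0.50). Without the Paneth-rich libraries 1 respiratory chain member was called and 1 of branched-chain breakdown, which had 3 with the covariate. In glycolysis 2 of 16 rose, Pgk1 (0.36) and Pgam1 (0.50), and 4 fell, among them Pkm (-0.44), Gapdh (-0.34) and Hk1 (-0.93). With the covariate 2 and 2 glycolysis genes were called, and none without the Paneth-rich libraries.

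**Figure D3:**
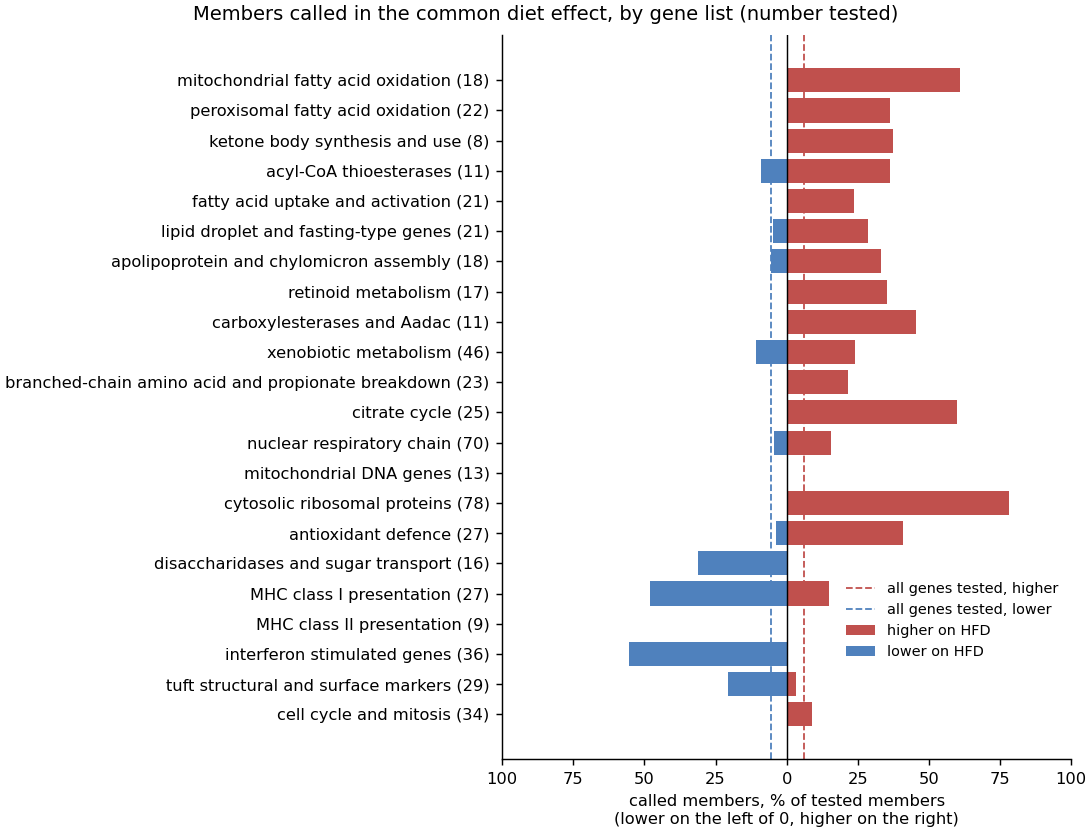
Share of the tested members of 22 gene lists that were called higher (right of 0) or lower (left of 0) in the common diet effect, in percent, with dashed lines at the 6.03% and 5.68% of all genes tested. Ribosomal proteins have 61 of 78 higher, mitochondrial fatty acid oxidation 11 of 18, and interferon stimulated genes 20 of 36 lower.

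Cytosolic ribosomal proteins had 61 higher and none lower of 78, with a median log2 fold change of 0.53 and 58 called with the marker covariate. In STF alone 54 members were called (32 without STF HFD mouse 8) and in LTF alone none by edgeR or DESeq2 (45 at an unadjusted p under 0.05), with medians of 0.66 and 0.40, and no member had an adjusted p under 0.1 for a difference between the sets. Rps7 rose from a median of 177 to 420 CPM in STF and from 106 to 180 CPM in LTF (log2 fold change 0.88, SE 0.18, adjusted p = 0.00212, edgeR). Rpl36a, Rps23, Rps27a and Rpl32 rose by 0.78, 0.66, 0.61 and 0.74 on the log2 scale. Ribosomal protein genes have many processed pseudogenes, so their reads may be divided. The stem cell markers moved the same way, with medians of 412 and 1320 CPM on RFD and HFD in STF and of 129 and 250 CPM in LTF, and so did the Paneth markers. Without the Paneth-rich libraries 13 members were called, with 76 of 78 fold changes above 0 and a median of 0.41 on the log2 scale. The part of other cells in the ribosomal values was not tested beyond this.

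Of 27 genes of antioxidant defence 11 rose and 1 fell, 8 rose with the marker covariate and 3 without the Paneth-rich libraries. Prdx1 rose from a median of 554 to 1060 CPM in STF and from 477 to 884 CPM in LTF (log2 fold change 0.95, SE 0.21). Gpx1, Gpx2 and Txn1 rose by 0.78, 1.04 and 0.49 on the log2 scale, whereas Prdx5 fell by 0.58, with all 23 HFD libraries below the RFD median of their set. Genes of the endoplasmic reticulum stress response had 6 higher, with Canx (0.66) and Asns (1.05) among them, and 1 lower of 23. The marker covariate left 4 higher and none lower, and in the libraries without the Paneth-rich ones 1 was higher, with Asns at 0.63 (adjusted p = 0.51).

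**Figure D4:**
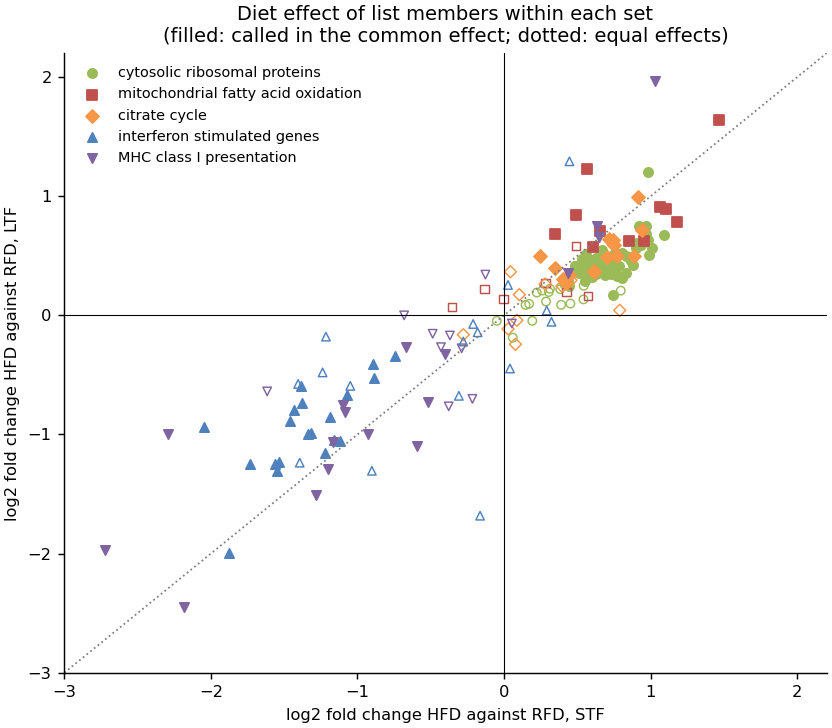
Log2 fold change of HFD against RFD within STF (horizontal) and within LTF (vertical) for the members of 5 gene lists, with filled symbols for members called in the pooled effect and a dotted line where both sets are equal. Ribosomal proteins lie mostly below the line, at medians of 0.66 and 0.40, and the filled interferon stimulated genes are below 0 on both axes.

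Among the genes that fell, those with the smallest p included Mbl2, H2-Q7, H2-K1, Mgam, Mfsd4a, Aspa, Hmgn3, Aldh4a1, Papss2 and Apoc3. Mbl2 (chromosome 19, 30232942 to 30239687) encodes a mannose-binding lectin that starts the lectin pathway of complement. It had 0, 1.20 and 21.4 CPM on RFD in STF, with 4 of 11 libraries at 0, and 0.733, 10.0 and 50.5 CPM on RFD in LTF. No read was found in any of the 23 HFD libraries. Against a floor of 3 counts per library the mean level was at least 4.44-fold lower on HFD (adjusted p = 4.11e-06, edgeR). Of the 13 tested lectins and mucosal defence genes Reg1 and Ltf, which encodes lactoferrin, also fell, by 1.55 and 1.46 on the log2 scale, and Reg3a rose by 0.77. The counts were again 3 lower and 1 higher with the marker covariate, and without the Paneth-rich libraries 1 and 0. Reg3b, an antibacterial lectin, was below every RFD library of its set in 14 HFD libraries, yet its log2 fold change of -1.01 (SE 0.51) did not pass (adjusted p = 0.22), and its highest LTF library on HFD was at 11655 CPM against an LTF HFD median of 248.

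MHC class I presentation, by which all nucleated cells show peptides to CD8 T cells, had 13 lower and 4 higher of 27 tested genes, and 11 and 3 with the marker covariate. H2-K1 (chromosome 17, 33996017 to 34000347), a classical class I heavy chain, had 653, 2026 and 3278 CPM on RFD and 452, 774 and 1805 CPM on HFD in STF. The LTF libraries had 874, 2506 and 5703 CPM on RFD and 745, 1035 and 1798 CPM on HFD. Every HFD library was below the RFD median of its set, giving -1.25 for the log2 fold change (SE 0.18, adjusted p = 8.94e-06, edgeR). B2m, the light chain shared by all class I molecules, had 257, 910 and 1203 CPM on RFD and 376, 503 and 733 CPM on HFD in STF. The level in LTF was 652, 2044 and 4315 CPM on RFD and 686, 879 and 1760 CPM on HFD. Again 23 of 23 HFD libraries were below the RFD median of their set, and the fold change was -0.85 on the log2 scale (SE 0.16, adjusted p = 0.000438, edgeR). H2-Q7, H2-Q6 and H2-T22 fell by 2.32, 2.32 and 1.40 on the log2 scale, and all H2 genes are uncertain since near-identical copies share reads. The 4 members that rose were Pdia3 and Calr, folding factors of the endoplasmic reticulum with many clients, H2-Q10 and the peptidase Erap1 (the 4 named after their values were seen). The proteasome activator gene Psme1 was at -0.28 (adjusted p = 0.13), and without the Paneth-rich libraries 7 members were lower and 2 higher. Of the 9 class II genes none was called by edgeR (none at an unadjusted p under 0.05) or by DESeq2, whereas voom called 6 lower, with Cd74 at -0.54 (adjusted p = 0.56).

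Of 36 interferon stimulated genes 20 fell and none rose (median log2 fold change -0.98), and 17 were called with the marker covariate. In STF 15 were called (6 without STF HFD mouse 8) and in LTF none by edgeR (15 at an unadjusted p under 0.05) and 1 by DESeq2, with medians of -1.17 and -0.70, and none had an adjusted p under 0.1 for a difference between the sets. Isg15, a ubiquitin-like protein induced by interferon, had 18.8, 70.1 and 130 CPM on RFD and 2.90, 14.6 and 58.5 CPM on HFD in STF. In LTF it had 17.6, 74.5 and 179 CPM on RFD and 2.92, 33.3 and 71.5 CPM on HFD. All 23 HFD libraries were below the RFD median of their set, though the groups overlapped (log2 fold change -1.42, SE 0.29, adjusted p = 0.00167, edgeR). The restriction factor Bst2 fell by 1.04 on the log2 scale, Parp14 by 1.16 and Oasl2 by 1.17. Irf1, a member with high levels, was at -0.25 (adjusted p = 0.27). The T cell markers had medians of 18.8 and 1.51 CPM on RFD and HFD in STF and of 16.2 and 3.46 CPM in LTF, and their part was not tested. Without the Paneth-rich libraries 5 members were called.

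**Figure D5:**
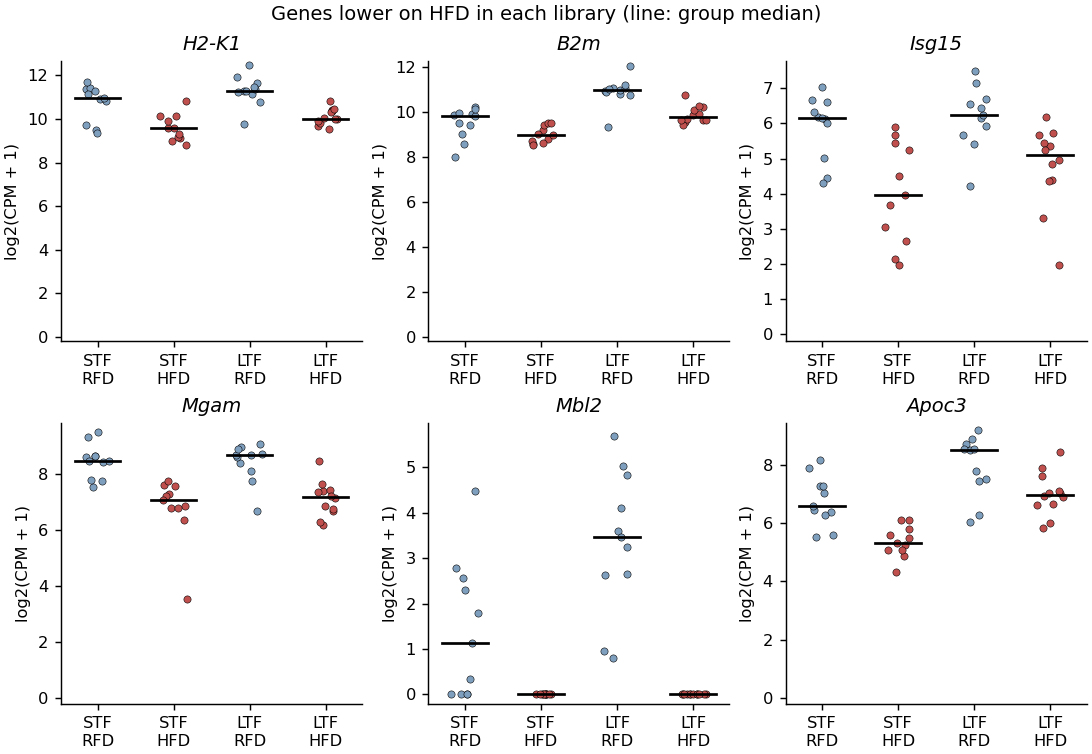
Level of 6 genes called lower on HFD in each library as log2(CPM + 1), by set and diet, with a line at the group median. Mbl2 is at 0 in all 23 HFD libraries, and Apoc3 has medians of 94.1 and 364 CPM on RFD against 38.8 and 125 CPM on HFD.

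Promoter windows were read for the genes with short motifs in them, since several listed genes moved together. RefSeq windows of 300 bases on GRCm38.p6 were found for 10293 of the 14020 genes, and 13 motifs were searched on both strands after the results were known. CAAAGGTCA, part of a nuclear receptor element, was in 9 of 679 genes that rose (1.33%), in 3 of 611 that fell (0.491%) and in 50 of all 10293 (0.486%). None of the 16 windows of mitochondrial and none of the 16 of peroxisomal fatty acid oxidation genes held it. The repeated element named above for PPAR alpha was searched in more than 1 form. With 1 base free in each copy, it was in 2 genes that rose (0.295%), 3 that fell (0.491%) and 37 of all (0.359%). With no base free in the copies, these counts were 1, 0 and 7. With 2 bases free in the first copy only, they were 3, 0 and 10. These counts were too small for a comparison. A GAAA repeat with any 2 bases between (GAAA, NN, GAAA) was in 25 of 679 genes that rose (3.68%), in 33 of 611 that fell (5.40%) and in 400 of all genes (3.89%). Among genes with a window it was in 13 of 25 interferon stimulated and 5 of 22 class I genes, of which Erap1 rose. It was also in 7 of 57 genes of cytosolic ribosomal proteins, a list with 61 higher and none lower. CAAAGGTCA overlaps the searched AGGTCA, and AGGTCA alone was in 16.8% of genes that rose, 17.3% of those that fell and 15.1% of all. The 150 bases before the start are shown for Rbp2 and Acot4, which rose, and for Isg15 and B2m, which fell, with matches to CAAAGGTCA (as its reverse complement) and to the GAAA repeat in capitals.
Rbp2, chr9:98490387-98490536, plus strand: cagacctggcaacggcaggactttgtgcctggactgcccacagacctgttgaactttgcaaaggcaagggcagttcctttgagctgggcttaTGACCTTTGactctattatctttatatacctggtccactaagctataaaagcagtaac
Acot4, chr12:84038229-84038378, plus strand: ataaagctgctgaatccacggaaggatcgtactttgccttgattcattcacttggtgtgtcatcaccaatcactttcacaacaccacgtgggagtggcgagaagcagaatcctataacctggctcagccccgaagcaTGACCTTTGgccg
Isg15, chr4:156200819-156200968, minus strand: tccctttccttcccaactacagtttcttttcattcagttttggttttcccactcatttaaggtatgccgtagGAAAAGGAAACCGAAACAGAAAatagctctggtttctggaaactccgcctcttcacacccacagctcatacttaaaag
B2m, chr2:122147537-122147686, plus strand: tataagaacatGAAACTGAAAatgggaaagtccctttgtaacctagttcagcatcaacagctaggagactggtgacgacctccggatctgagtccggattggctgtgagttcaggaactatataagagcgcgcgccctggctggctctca
In Isg15 there are 3 overlapping matches, the first of which begins 78 bases before the start, and in B2m there is 1, beginning 139 bases before it. The RefSeq start of Rbp2 lies inside the span of the gene in GENCODE. A match describes letters and not a binding site.

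Sugar handling moved the other way from fat handling, with 5 lower and none higher of 16 genes (median log2 fold change -0.60), 2 lower without the Paneth-rich libraries and 9 lower with the marker covariate, which 4 of the 16 help to form. Mgam, the maltase of the brush border, had 184, 346 and 722 CPM on RFD and 10.5, 132 and 213 CPM on HFD in STF. The LTF libraries had 99.7, 402 and 528 CPM on RFD and 70.5, 141 and 349 CPM on HFD. All HFD libraries were below the RFD median of their set (log2 fold change -1.42, SE 0.20, adjusted p = 8.94e-06, edgeR). The sucrase Sis fell by 1.02 on the log2 scale, the glucose carriers Slc5a1 and Slc2a2 by 1.29 and 1.34 and the fructokinase Khk by 0.62. Tkfc and Lct were at -0.58 and -0.50 and did not pass. These are enterocyte genes, 3 of which stand among the 4 lower enterocyte markers. The list of brush border peptidases and amino acid carriers, which also holds other brush border genes, was split. It had 3 higher, such as the peptidase Mep1a (0.94), and 3 lower of 25. Among the lower were the peptide carrier Slc15a1 and Muc3 (-0.84), a mucin and neither a peptidase nor a carrier. None of the 25 was higher and 2 were lower without the Paneth-rich libraries, and with the covariate, which 6 of the 25 help to form, 2 and 3.

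Of the other genes that fell with the smallest p, Mfsd4a, a transporter-like gene, was below every RFD library of its set in 15 HFD libraries, which no other gene reached (0.00713% of those tested). It had medians of 47.5 and 7.72 CPM on RFD and HFD in STF and of 46.2 and 26.02 CPM in LTF (log2 fold change -1.43, SE 0.21). Aspa, which cleaves N-acetylaspartate, fell by 1.29 on the log2 scale, the chromatin protein Hmgn3 by 1.42 and the proline breakdown enzyme Aldh4a1 by 1.97. Smc5 and the adenosine deaminase Ada fell by 0.94 and 1.87 on the log2 scale. Of 8 tested genes of GABA signalling 2 fell and none rose, with 2 called under the marker covariate and 1 without the Paneth-rich libraries. Gabbr1, a chain of the GABA-B receptor, was among the 2 that fell, with a log2 fold change of -1.54. All 23 HFD libraries were below the RFD median of their set, but Gabbr1 was not called without the Paneth-rich libraries.

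Tuft cell genes fell in part. Of 29 structural and surface markers 6 fell and 1 rose, with a median log2 fold change of -0.65 and 26 of 29 below 0. The number of lower members turned on the fit, with 17 by DESeq2, 25 by voom and 5 on TPM. None was lower with no filter on low counts or at an adjusted p under 0.05, and edgeR called none in either set alone. Since 9 of the 29 help to form the marker covariate, the count with it, 10 lower and none higher, is no separate check. Krt18, a keratin and one of the genes with the most reads, had medians of 22523 and 9224 CPM on RFD and HFD in STF and of 18409 and 13489 CPM in LTF (log2 fold change -0.83, SE 0.27, adjusted p = 0.0545, edgeR). Espn, which bundles actin, Ptpn18, Bmx and Sh2d6 fell by 0.89, 0.90, 0.78 and 0.92 on the log2 scale, and Dclk1, the usual marker, was at -0.25 (SE 0.29, adjusted p = 0.64). Without the Paneth-rich libraries none of the 29 was called, and Dclk1 was at 0.20. Of 15 genes of the taste cascade Itpr3 and the succinate receptor Sucnr1 fell, by 0.59 and 0.88 on the log2 scale, and Trpm5 was at -0.73 (adjusted p = 0.22). Of 15 lineage regulators Runx1, Nfatc1 and Pou2f3, the master factor of the lineage, fell by 0.78, 0.88 and 0.85. In eicosanoid synthesis Alox5ap fell by 0.86 and Ptges3, a co-chaperone also listed as a prostaglandin synthase, rose by 0.68. None of these taste, lineage and eicosanoid genes was called without the Paneth-rich libraries.

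Of 12 type 2 cytokine and receptor genes 2 fell. Il25 had 0, 16.2 and 60.0 CPM on RFD and 0, 5.30 and 24.6 CPM on HFD in STF. In LTF it had 0, 27.4 and 51.3 CPM on RFD and 0, 12.9 and 22.3 CPM on HFD. The groups overlapped, 21 of 23 HFD libraries were below the RFD median of their set, and the log2 fold change of -1.25 (SE 0.38) passed in the pooled fit (adjusted p = 0.0379, edgeR) and in neither set alone (0.14 in STF and 0.58 in LTF). In the libraries without the Paneth-rich ones it was -0.92 (adjusted p = 0.32), and none of the 12 genes was called. The receptor chain Il10rb fell by 0.49 on the log2 scale. Tslp was at -0.999 on the log2 scale (SE 0.42, adjusted p = 0.14), with medians of 6.48 and 2.67 CPM on RFD and HFD in STF and of 13.1 and 5.02 CPM in LTF.

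The genes called in the pooled fit but in neither set alone were led, among those that rose, by Ahcy, which breaks down S-adenosylhomocysteine, Ugt1a9, Lamb3, Aqp11, the zinc carrier Slc39a5 and Gm10123. Ahcy rose from a median of 58.7 to 138 CPM in STF and from 38.3 to 110 CPM in LTF (log2 fold change 1.08, SE 0.24, adjusted p = 0.00423, edgeR), with 23 of 23 HFD libraries above the RFD median of their set. Lamb3, a laminin chain, rose by 1.81 on the log2 scale and was above every RFD library of its set in 17 HFD libraries. Among those that fell they were Arl5a, Srp19, Rnf31, Ncor1, Cd200 and Mink1. Ncor1, a corepressor of nuclear receptors, fell from a median of 94.3 to 58.5 CPM in STF and from 82.5 to 51.8 CPM in LTF (log2 fold change -0.61, SE 0.14, adjusted p = 0.00635, edgeR). Rnf31, a subunit of the linear ubiquitin ligase, fell by 0.95 on the log2 scale and Cd200, a surface ligand that restrains myeloid cells, by 1.13. All 9 called genes among 29 nuclear receptors, their partners and gut transcription factors were called in neither set alone. Hnf4g, Cdx2 and Nfe2l2 rose by 0.90, 0.77 and 0.55 on the log2 scale and Ppard fell by 1.17. Hnf4a was at 0.16 (adjusted p = 0.59). With the marker covariate 1 of the 29 was higher and 2 were lower, and without the Paneth-rich libraries none was called.

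Several lists held no more than a few called genes, while over all genes tested 6.03% were called higher and 5.68% lower. Bile acid genes had 3 higher of 10, but none with the marker covariate, on TPM, at an adjusted p under 0.05 or without the Paneth-rich libraries. The progestin and adiponectin receptor family had 2 of 10, led by Paqr7 (log2 fold change 2.69, SE 0.54), again 2 with the covariate and 1 without the Paneth-rich libraries. Cell cycle genes had 3 higher of 34, Hmgb2, Tubb5 and Cenpe, although all 34 fold changes were above 0 (median 0.90) and 19 had an unadjusted p under 0.05. The cell cycle count turned on the fit, with 10 called by DESeq2, 19 with the number series as a block, 21 on TPM and 33 by voom, against 2 with the covariate and 1 without the Paneth-rich libraries. Stem cell and Wnt target genes had 2 higher of 22, Ccnd1 and Lgr5, and 1 without the Paneth-rich libraries. Paneth granule genes had 2 of 17, Spink4 and Clps, with all 17 fold changes above 0, and mucin and goblet genes 3 higher and 2 lower of 17. No Paneth granule gene was called without the Paneth-rich libraries, and of the mucin and goblet genes 1 was, a lower one. The marker covariate, which 7 genes of each of these 2 lists help to form, gave the same counts. Immediate early genes had 3 higher and 1 lower of 25, with Fos at 0.95 and Hspa1b at -1.58, and clock genes 0 and 2 of 20, with Per3 at -0.92. With the covariate these were 1 and 1 and 0 and 1, and neither list had a called gene without the Paneth-rich libraries. Granins and endocrine factors had 1 higher of 13, Ddc, which makes serotonin and dopamine (0.93, SE 0.15, adjusted p = 7.72e-05, edgeR), and 1 higher and 1 lower without the Paneth-rich libraries.

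Gut hormones, which come from enteroendocrine cells, held 4 of the 6 genes with the smallest p for a different diet effect in the 2 sets. Gcg, Cck and Nts were 3 lower genes of 9, with pooled log2 fold changes of -3.75, -3.37 and -3.55, and none was higher. Cck had 0, 3.96 and 98.0 CPM on RFD and 0, 3.27 and 141 CPM on HFD in STF, against 0, 36.8 and 210 CPM and 0, 0 and 3.90 CPM in LTF. Nts had medians of 0.753 and 0 CPM on RFD and HFD in STF and of 25.7 and 0 CPM in LTF. The difference of the diet effect between the sets, LTF less STF, was -8.44 for Nts, -6.97 for Cck, -9.98 for Pyy and -6.53 for Ghrl on the log2 scale (adjusted p = 0.17, 0.65, 0.17 and 0.65, edgeR). Gm17099 and Acyp2 were the remaining genes of the 6 (adjusted p = 0.65 for both). Over the 9 hormone genes the median log2 fold change was 0.14 within STF, where none was called by edgeR or DESeq2 (none at an unadjusted p under 0.05), and -6.05 within LTF, where 4 were. In STF HFD mouse 8 the enteroendocrine markers summed to 6539 CPM, against 1005 in the next STF library on HFD. Without that library the median within STF was -0.66, and the difference between the sets was -7.99 for Nts and -8.84 for Pyy (adjusted p = 0.45 for both) and -5.05 for Cck and -5.50 for Ghrl (adjusted p = 1 for both, edgeR). Of the 9, 4 were called lower in the pooled fit without the Paneth-rich libraries, and 7 of the 9 help to form the marker covariate, with which 6 were. The enteroendocrine markers moved with them, from medians of 727 to 187 CPM in LTF and of 443 to 261 CPM in STF, and their part was not tested.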

How the data were processed

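Tuft cells of 45 male mice were profiled by Smart-seq2 on a NovaSeq instrument, 1 library per mouse, and grouped by the labels into STF and LTF sets on RFD or HFD. Per the labels and processing notes, the authors trimmed reads with cutadapt 1.15, aligned them to GRCm38 with STAR 2.6.0 and quantified genes with RSEM, which divides reads between near-identical genes. The deposited matrices hold RSEM expected counts (estimated counts, of which 8.79% above 0 were not whole) and TPM values that the authors computed per library. The total of expected counts is the depth, and a gene near the filter rests on few reads. The kit does not mark strand, so a gene and its antisense partner cannot be told apart. The 24 columns without a label were not used, nor were the FPKM tables.

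Expected counts of the 2 matrices were joined by gene identifier (47729 genes, 47224 with a symbol) and rounded. Genes with more than 5 reads in at least 6 libraries were kept, which left 14020. They were tested with edgeR 4.0.16 in R 4.3.3 (TMM, robust quasi-likelihood fit, set and diet in the model, all genes adjusted together by Benjamini-Hochberg, adjusted p under 0.1). Standard errors were taken as the size of the log2 fold change over the square root of F. The 4 groups were also fitted in 1 model for the effects within sets and their difference. Alternatives used DESeq2 1.42.0, limma 3.58.1 (voom with sample weights, and log2(TPM + 1) with a pseudocount of 1), other filters, blocks and sets of libraries, and a covariate of the mean log2 CPM of tuft markers less that of other markers. Leaving out the 17 Paneth-rich libraries or STF HFD mouse 8 and the alternatives within sets were chosen after seeing the data. The test was checked on simulated counts before use. P-values measure the spread between these libraries. Mice of a group shared cages that the labels do not name. Libraries were tested as independent, and a spread between cages was not modelled. The cell-type weighting of the study was not repeated.

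The comparison, the gene lists and the named genes were chosen with earlier results of these data known. Some genes stand in more than 1 list and count in each, so the lists are not separate. Slc27a2 is in the peroxisomal and uptake lists, and Dld in those of the citrate cycle and branched-chain breakdown. Named were, of those reported, the 12 genes with the smallest p in each direction, up to 5 called and 3 uncalled members of each list, 6 in each direction called in neither set alone, the 6 with the smallest p for a difference between sets, the 8 in each direction whose groups overlap least, and markers, and uncalled members near 0 were left out. Some genes that this rule names are not reported here. Promoter sequences came from RefSeq on GRCm38.p6.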

Additional observations from a re-analysis of the deposited data

How the results depend on the processing

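No paired analysis was possible because no mouse number is shared between an HFD and an RFD library. Against 1642 calls (846 higher, 796 lower), DESeq2 called 2608 (1335 and 1273), limma-voom with sample weights 5563 (2713 and 2850), limma on log2(TPM + 1) 941 (350 lower), the marker covariate 1019 (518 and 501), the 28 libraries without the Paneth-rich ones 224 (137 and 87) and a threshold of 0.05 928 (489 and 439). DESeq2 size factors, no filter, leaving out low totals and the number series as a block stayed within 1.5 times of the 3 counts, though with no filter 904 of the 1642 genes (361 of the 796 lower) were among its 1554 calls. Leaving out each library in turn gave 1255 to 2809 calls, 640 to 1730 higher and 489 to 1287 lower. For the difference between sets no filter gave 65 genes against 0. Within STF 684 calls became 1604 by DESeq2, 434 without low totals, 342 without STF HFD mouse 8 and 69 with the marker covariate, and within LTF 63 became 165 by DESeq2, 221 with no filter and 214 with the covariate. The causes were not tested, and in the 28 libraries the smaller number and the absence of the Paneth-rich ones cannot be told apart.

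Without the Paneth-rich libraries the members called were 7 for mitochondrial fatty acid oxidation, 2 for sugar transport, 2 for the citrate cycle, 7 lower for MHC class I, 5 for interferon stimulated genes and 13 for ribosomal proteins. Median log2 fold changes of these lists there were 0.55, -0.60, 0.32, -0.41, -0.59 and 0.41. In all libraries they were 0.63, -0.60, 0.38, -0.47, -0.98 and 0.53. The median of the tuft structural and surface markers moved from -0.65 to -0.24, and that of Paneth granule genes from 1.74 to 0.28. On log2(TPM + 1) they were 5 for the citrate cycle, 8 for MHC class I and 32 for ribosomal proteins. Citrate cycle members numbered 7 with no filter, 9 with the covariate and 8 at 0.05, and sugar members 8 with the number series and 9 with the covariate. Of 158 called genes in the text, none changed sign under any of these alternatives, and 0 lost the call by DESeq2, 2 by voom, 41 on TPM, 35 with no filter, 6 without low totals, 2 with the number series, 20 with the covariate, 87 without the Paneth-rich libraries and 28 when some single library was left out. Of genes that were not called, Slc25a20 turned to 0.11 with the covariate and 0.13 without the Paneth-rich libraries, Fabp1 to 0.0245 with the covariate, Acly to -0.24 on TPM and to -0.0058 as the lowest of the values with 1 library left out (highest 0.14), and mt-Co1, Dclk1 and Gm17099 to 0.0114, 0.20 and 0.0301 without the Paneth-rich libraries. Low depth limits what can be said of genes with few reads.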
